A study of Mus musculus with 24 samples.

Results

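The naive pluripotency factors followed here were the 10 mouse genes Nanog, Klf2, Klf4, Klf5, Esrrb, Zfp42, Tfcp2l1, Tbx3, Prdm14 and Dppa3. They were chosen by name from a table of 21553 genes with counts, and all 10 passed the filter on low counts that left 16627 genes for testing. Polyadenylated RNA was sequenced from 24 samples in 8 groups of 3, covering 2 genotypes at 4 stages of neural differentiation. WT cells were wt/wt E14 mouse embryonic stem cells (ESCs) and their derivatives. Slow/slow cells carried the Polr2a allele R749H on both chromosomes, a change in the largest subunit of RNA polymerase II that lowers its elongation rate, and were made by retargeting heterozygous ESCs, with the number of clones not given. ESCs grew on gelatin in 2i medium with LIF. Neuronal progenitor cells (NPCs) were taken at day 7 of monolayer culture in N2B27 without inhibitors or LIF, PSA-NCAM+ cells were purified with antibody-coated beads at day 10, and neurons came from day 7 cultures replated and grown for 14 more days. WT cultures were seeded at 10000 and slow/slow cultures at 30000 cells per cm2, so that genotype and seeding density cannot be told apart in the NPC and PSA-NCAM+ cultures. No seeding density is given for the neuron samples. As these came from day 7 cultures, a difference carried over from seeding cannot be told apart from genotype there either. Nothing in the labels ties a replicate number to a culture, and p-values measure the spread between the 3 samples of a group.

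Naive pluripotency is the state of the epiblast before implantation, and ESCs hold it in 2i medium, in which a MEK inhibitor blocks the ERK pathway and a GSK3 inhibitor stabilises beta-catenin, while LIF activates STAT3. The factors form a network that keeps itself on. Nanog, a homeodomain protein, and Esrrb, an orphan nuclear receptor, bind many of the same enhancers as the core factors Oct4 (Pou5f1) and Sox2. Tfcp2l1 and Klf4 are induced by LIF and STAT3, Esrrb is derepressed when GSK3 is inhibited, and Klf2, Klf4 and Klf5 are zinc-finger proteins that bind GC-rich boxes. Prdm14 represses FGF signalling and de novo DNA methyltransferases, Tbx3 is a T-box factor, Zfp42 (Rex1) is a zinc-finger protein widely used as a marker of the naive state, and Dppa3 (Stella) restrains maintenance DNA methylation. When the inhibitors and LIF are withdrawn the network collapses, a formative or primed gene set comes on, and lineage genes follow.

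Promoters of the members differed in composition, and 5 are printed to show the sequence from which transcription of the factors starts. RefSeq promoter sequences, taken as the 250 bases before the start site on GRCm38.p6, were matched for 6 of the 10 members (8 promoters). Capitals mark matches, on either strand, to an octamer element ATGCAAA, a SOX core ACAATG, a KLF box GGGNGTG, an estrogen-related receptor element AAGGTCA, a STAT palindrome TTCNNNGAA or a TATA box TATAAA, and each promoter is given 5′ to 3′ on the strand of its gene.
Nanog, chr6:122707239-122707488, plus strand: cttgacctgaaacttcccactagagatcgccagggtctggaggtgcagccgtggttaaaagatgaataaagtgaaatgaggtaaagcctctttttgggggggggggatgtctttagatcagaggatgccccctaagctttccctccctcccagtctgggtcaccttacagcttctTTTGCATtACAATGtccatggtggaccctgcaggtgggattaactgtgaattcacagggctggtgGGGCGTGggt
Esrrb, chr12:86360867-86361116, plus strand: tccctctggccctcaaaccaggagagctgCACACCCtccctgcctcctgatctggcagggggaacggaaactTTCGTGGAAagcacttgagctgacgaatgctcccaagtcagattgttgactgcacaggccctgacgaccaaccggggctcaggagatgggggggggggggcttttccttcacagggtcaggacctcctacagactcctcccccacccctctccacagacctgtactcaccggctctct
Tfcp2l1, chr1:118627695-118627944, plus strand: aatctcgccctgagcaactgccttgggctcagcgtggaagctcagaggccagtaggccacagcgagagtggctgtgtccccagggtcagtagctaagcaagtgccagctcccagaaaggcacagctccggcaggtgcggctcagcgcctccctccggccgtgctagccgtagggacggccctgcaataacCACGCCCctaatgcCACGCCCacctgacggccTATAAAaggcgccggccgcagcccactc
Zfp42, chr8:43307010-43307259, minus strand: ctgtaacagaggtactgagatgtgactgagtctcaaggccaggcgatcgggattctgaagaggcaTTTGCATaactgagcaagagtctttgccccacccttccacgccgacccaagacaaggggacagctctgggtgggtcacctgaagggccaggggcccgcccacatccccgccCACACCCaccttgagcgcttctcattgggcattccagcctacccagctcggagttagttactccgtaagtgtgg
Klf4, chr4:55532476-55532725, minus strand: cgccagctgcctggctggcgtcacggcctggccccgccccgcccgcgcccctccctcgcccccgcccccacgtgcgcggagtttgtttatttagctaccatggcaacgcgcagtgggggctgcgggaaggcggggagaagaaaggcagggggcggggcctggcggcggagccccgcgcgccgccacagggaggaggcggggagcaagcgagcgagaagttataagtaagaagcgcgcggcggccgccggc

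Positions below count back from the start site to the leftmost base of a match. The Nanog promoter held an octamer element on the opposite strand at -75 next to a SOX core at -67, and a KLF box at -10. Zfp42, too, held an octamer element on the opposite strand, at -185, with a KLF box at -74. The Tfcp2l1 promoter had KLF boxes at -60 and -46 and a TATA box at -28, whereas the first Esrrb promoter had a KLF box at -221 and a STAT palindrome at -178. No match was found in the promoters of Klf2, Klf4 and the second Esrrb start, which says only that these letters are not in those windows. Over all 32817 RefSeq promoters cut to the same length, the octamer element was present in 4.13%, the SOX core in 10.7%, the KLF box in 26.08%, the receptor element in 4.08%, the STAT palindrome in 7.01% and the TATA box in 12.37%. The promoters of Klf2 and Klf4 were rich in CpG, with observed over expected ratios of 0.915 and 0.941 and GC contents of 71.2% and 74.0%, against a median GC content of 52.4% over all promoters. Those of Nanog (0.182 and 0.104) and Esrrb (0.264 and 0.188) were poor in CpG, and Zfp42 (0.423) and Tfcp2l1 (0.609) lay between.

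The genes lie on 7 chromosomes of GRCm38, with Nanog and Dppa3 close together on chromosome 6 (122707489 to 122714633 and 122626410 to 122630272). Klf2 (72319033 to 72321656) and Zfp42 (43295063 to 43306980) are both on chromosome 8, and Tfcp2l1 (118627945 to 118685168) and Prdm14 (13113457 to 13127163) on chromosome 1. Tbx3, on chromosome 5, has an antisense partner, Tbx3os1, and Tfcp2l1 overlaps 3 other annotated genes. Whether counting used the strand is not given in the sources used here, so reads of such partners could not be told apart.

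Each library held between 32974432 and 104466886 counts, and levels are given as CPM, the count of a gene relative to the whole library, after scaling by the trimmed mean of M-values (TMM). Core pluripotency genes summed to 3075 to 3443 CPM in WT ESCs and to 2036 to 2069 CPM in WT NPCs. That sum joins opposite moves, with 4 of the 6 genes called lower and 2 higher in WT NPCs than in WT ESCs. Over all genes 31.6% were called lower and 34% higher. On the authors' mean RPKM Pou5f1 went from 1251 to 513 and Utf1 from 12.6 to 336. Markers of neural progenitors, of which 4 of 5 listed were in the table, summed to 18.6 to 19.7 CPM in WT ESCs and 37.5 to 38.9 CPM in WT NPCs, against 124 to 166 CPM in slow/slow NPCs and 885 to 1058 CPM in WT neurons. Genes for NCAM and its polysialylation were likewise low in the WT cells labelled PSA-NCAM+ (28.9 to 32.7 CPM) beside WT neurons (1783 to 1884 CPM). Replicate 1 of the PSA-NCAM+ cells stood apart from replicates 2 and 3 in both genotypes, with mesenchymal markers summing to 525 CPM in the WT library, where the other two were at 203 and 292 CPM, and to 675 CPM in the slow/slow library, where the others were at 195 and 173 CPM. Member calls, shares of the ESC level and list counts at that stage are therefore given also without these libraries.

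In ESCs the network was near the WT level in slow/slow cells. Esrrb was lower and Klf2 and Zfp42 were higher, each by less than 2-fold, and the other 7 members did not pass the test. Compared per length, on the authors' mean RPKM of WT ESCs, Nanog (475) and Zfp42 (436) were the most abundant, followed by Esrrb (329), Klf2 (238), Tfcp2l1 (187) and Klf4 (128). Tbx3 (69.98), Klf5 (64.7) and Prdm14 (30.5) followed, and Dppa3 was the lowest at 5.28. These are the authors' means, so neighbours in that order could not be set against a spread.

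Esrrb stood at 1378, 1352 and 1506 CPM in the 3 WT ESC samples and at 1053, 1060.3 and 1028 CPM in slow/slow ESCs. The slow/slow samples were all below the WT samples, a log2 change of -0.43 ± 0.13 (FDR = 0.00905) by edgeR's quasi-likelihood test with Benjamini-Hochberg adjustment over all genes, which gives every FDR below. Klf2 was at 403, 464 and 525 CPM in WT and at 747, 727 and 690.0 CPM in slow/slow ESCs, with no overlap, a log2 change of 0.64 ± 0.19 (FDR = 0.0123). Zfp42 was at 831, 853 and 795 CPM in WT ESCs, against 1003, 1084 and 1065 CPM in their slow/slow counterparts, again without overlap, a change of 0.35 ± 0.12 (FDR = 0.0264). Both genes on chromosome 8 were thus called higher, but the median of the 865 tested genes of that chromosome was itself higher by 0.45 in slow/slow ESCs, above every other chromosome, and relative to it Klf2 kept a difference of 0.19 while the direction for Zfp42 turned to -0.10.

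Across the genome 18.5% of tested genes were called higher and 21.9% lower in slow/slow ESCs, beside 2 and 1 of the 10 members, and the median change of the members was -0.13 against -0.02 for all genes. Nanog was at 1037, 1034 and 1045 CPM in WT against 889, 918 and 950.4 CPM in slow/slow ESCs, so that the groups did not overlap although the change of -0.18 ± 0.14 (FDR = 0.34) did not pass. Klf4, Tbx3 and Prdm14 also lay lower without overlap, with changes of -0.07 ± 0.28 (FDR = 0.882), -0.37 ± 0.21 (FDR = 0.185) and -0.33 ± 0.26 (FDR = 0.33), and none passed. In all 2 members lay above and 5 below WT without overlap, where 59.8% of all tested genes did not overlap in either direction. Klf5, Tfcp2l1 and Dppa3 differed by between -0.17 and -0.04. The calls in ESCs were fragile. Leaving out WT replicate 1 moved the FDR of Klf2 to 0.0531, that of Zfp42 passed 0.05 without WT replicate 3 or slow/slow replicate 2 or 3 (0.0561 to 0.0704), and none of the 3 calls held against a minimum change of 2-fold. Fitted on the ESC samples alone, Nanog (-0.16, FDR = 0.0373), Tbx3 (-0.35, FDR = 0.000349) and Prdm14 (-0.31, FDR = 0.000896) were also called lower.

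**Figure D1:**
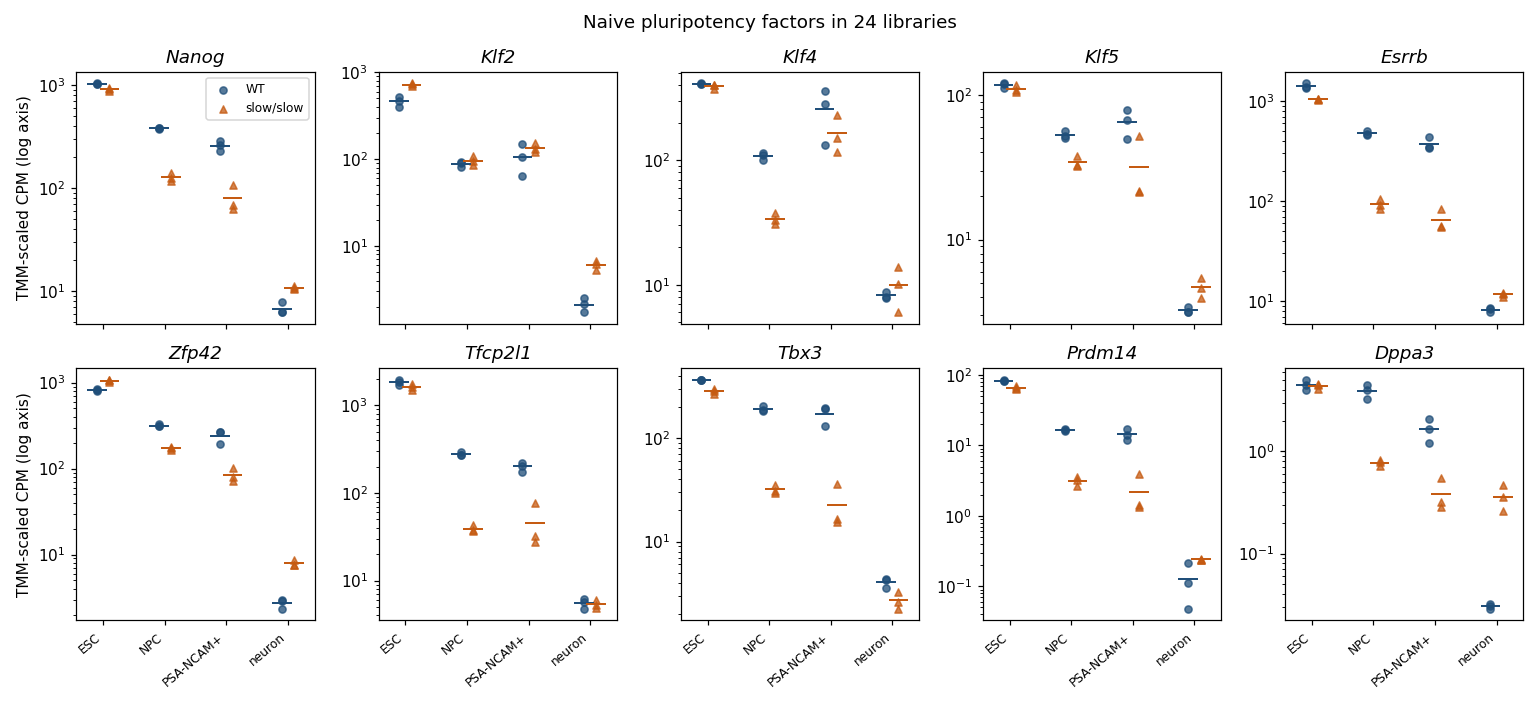
Levels of the 10 factors in TMM-scaled CPM (log axis, 1 panel per gene with its own range) at each stage; circles are WT and triangles slow/slow samples, and dashes are means of 3. At NPCs the slow/slow samples lie below the WT samples for every factor but Klf2, and in neurons those of Nanog, Klf2, Klf5, Esrrb, Zfp42, Prdm14 and Dppa3 lie above them.

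By day 7, 9 of the 10 factors were lower in slow/slow than in WT NPCs. The differences were largest for Tfcp2l1, Tbx3, Prdm14, Esrrb and Dppa3, whose slow/slow levels were between 5.05- and 7.08-fold lower, and Klf2 alone did not pass. The median change of the members was -2.0, beside 0.01 for all tested genes, of which 27.4% were called lower. In bulk RNA a lower level can come from fewer cells that express a gene or from less RNA in each cell, and the 2 cannot be told apart here.

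Among the central regulators, Esrrb fell from the ESC levels above to 474, 506 and 454 CPM in WT NPCs and to 104, 91.7 and 83.2 CPM in slow/slow NPCs. Every slow/slow sample lay below every WT sample, a log2 change of -2.36 ± 0.13 (FDR = 5.09e-11). Nanog was at 387, 380.4 and 385 CPM in WT against 125, 142 and 119 CPM in slow/slow NPCs, also apart, with a change of -1.58 ± 0.14 (FDR = 3e-08). For Tfcp2l1 the values were 269, 291 and 274 CPM in WT against 42.6, 37.9 and 37.1 CPM in slow/slow NPCs. This STAT3-induced factor thus showed the widest gap of the set, -2.82 ± 0.26 (FDR = 2.68e-08). Zfp42, at 331, 309 and 309 CPM in WT and at 174, 177 and 166 CPM in slow/slow NPCs, was less far apart and changed by -0.88 ± 0.12 (FDR = 5.81e-06), or by -1.36 relative to the chromosome 8 median.

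The Krüppel-like factors divided. Klf4 was at 110.1, 114 and 101 CPM in WT against 38.1, 32.9 and 30.8 CPM in slow/slow NPCs, a change of -1.67 ± 0.29 (FDR = 5.85e-05). Klf5 differed less, with 50.1, 56.2 and 52.1 against 37.7, 32.7 and 32.4 CPM, -0.62 ± 0.23 (FDR = 0.027), and its call was lost without WT replicate 2 or 3 or slow/slow replicate 2 or 3 (FDR 0.0571 to 0.0849). Klf2 overlapped between the genotypes, at 81.8, 90.2 and 92.5 CPM in WT and at 94.2, 108 and 84.8 CPM in slow/slow NPCs, with a change of 0.12 ± 0.19 (FDR = 0.633) and of -0.37 relative to the chromosome 8 median. The 3 paralogs therefore ran from a clear reduction to no detected difference, although each had been within 2-fold of WT in ESCs.

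Tbx3 was at 186, 206 and 180.1 CPM in WT against 35.5, 29.7 and 30.5 CPM in slow/slow NPCs, a change of -2.58 ± 0.23 (FDR = 2.08e-08). Prdm14, at 15.9, 17.1 and 16.8 against 3.25, 3.53 and 2.66 CPM, changed by -2.40 ± 0.28 (FDR = 8.48e-07). Dppa3, the least abundant member, was at 3.27, 3.97 and 4.51 CPM in WT against 0.815, 0.716 and 0.789 CPM in slow/slow NPCs, a change of -2.34 ± 0.23 (FDR = 9.97e-08). The groups did not overlap for 9 members, all lower in slow/slow, where 74.7% of all tested genes did not overlap in either direction.

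**Figure D2:**
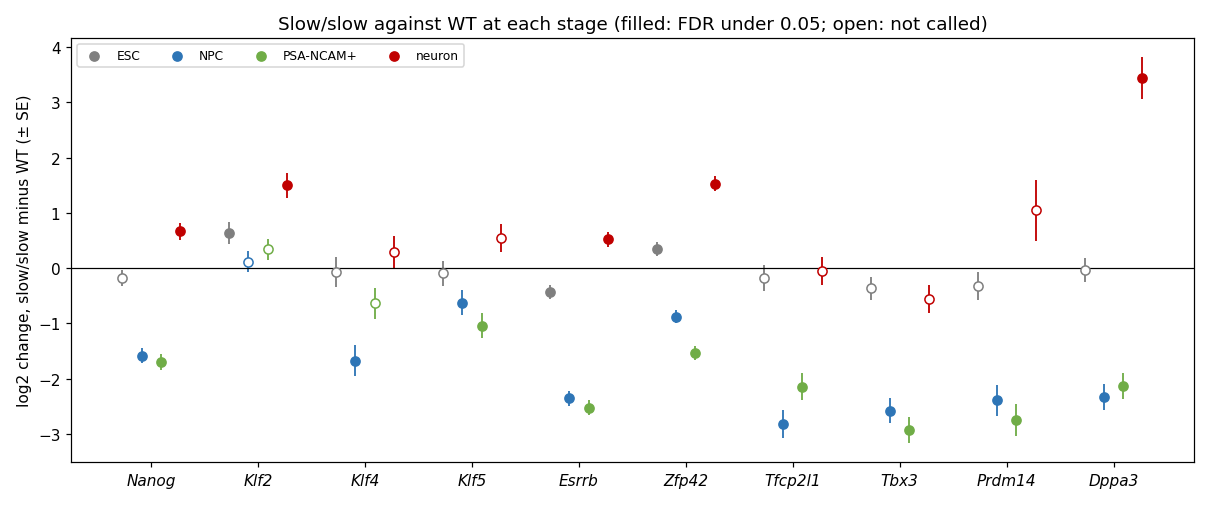
Log2 change, slow/slow minus WT, with its standard error for each factor at the 4 stages; filled points passed FDR 0.05 over all genes and open points did not. The NPC and PSA-NCAM+ points lie below 0 for 9 factors and the neuron points above 0 for 8, while the ESC points lie within 0.64 of 0, with the direction of Zfp42 in ESCs turning to -0.10 relative to chromosome 8 and that of Tfcp2l1 in neurons to 0.09 under upper-quartile scaling.

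The fall from the ESC level was itself larger in slow/slow cells. In WT cells 9 members were lower in NPCs than in ESCs, beside 31.6% of all genes, with a median change of -1.5. Dppa3 was the member that did not pass, at -0.19 ± 0.21 (FDR = 0.435). In slow/slow cells all 10 were lower, beside 28.4% of genes, with a median of -3.03. The interaction, the slow/slow fall minus the WT fall, was called for 8 members, all in the direction of a deeper fall in slow/slow, where 11% of all genes were called in that direction. It was -2.65 ± 0.34 (FDR = 1.5e-05) for Tfcp2l1, -1.93 ± 0.18 (FDR = 2.79e-07) for Esrrb and -1.41 ± 0.20 (FDR = 4.12e-05) for Nanog. Klf2 and Klf5 did not pass, at -0.52 ± 0.27 (FDR = 0.178) and -0.53 ± 0.32 (FDR = 0.254). Fitted on the ESC and NPC samples alone, both were called in the same direction (FDR = 0.000333 and 5.75e-05). These contrasts share the ESC and NPC samples of the genotype comparison and are another view of the same libraries.

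Expressed as a share of the ESC mean of the same genotype, the median over the 10 members in NPCs was 35.4% ± 0.794 points (SD, n = 3) in WT and 12.3% ± 0.859 points in slow/slow cells. The order of silencing differed between members. In WT NPCs Dppa3 kept 87.3% (72.8 to 101%), with the range over replicates in parentheses, Tbx3 52.3% (49.4 to 56.5%) and Klf5 45.1% (42.7 to 48.0%). Zfp42 (38.3%), Nanog (37.0%), Esrrb (33.8%) and Klf4 (26.3%) came next. Prdm14 (20.0%) and Klf2 (19.01%) were the only neighbours in the order whose replicates overlapped, and Tfcp2l1 had fallen furthest, to 15.1% (14.6 to 15.8%).

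Slow/slow NPCs kept 31.2% (29.5 to 34.3%) of the ESC level of Klf5, the most retained member, while Tfcp2l1 was again the furthest fallen at 2.40% (2.27 to 2.60%). Between them lay Dppa3 (17.7%) and Zfp42 (16.4%), whose replicates overlapped, then Nanog (14.0%), Klf2 (13.2%) and Tbx3 (11.3%), each overlapping the next. Esrrb (8.89%) and Klf4 (8.62%) were not separated, and Prdm14 was at 4.76%. The order was thus kept only in part between genotypes. Tbx3 went from rank 2 in WT to rank 6 in slow/slow NPCs, whereas Dppa3 went from rank 1 to rank 2. Tfcp2l1 was last in both.

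**Figure D3:**
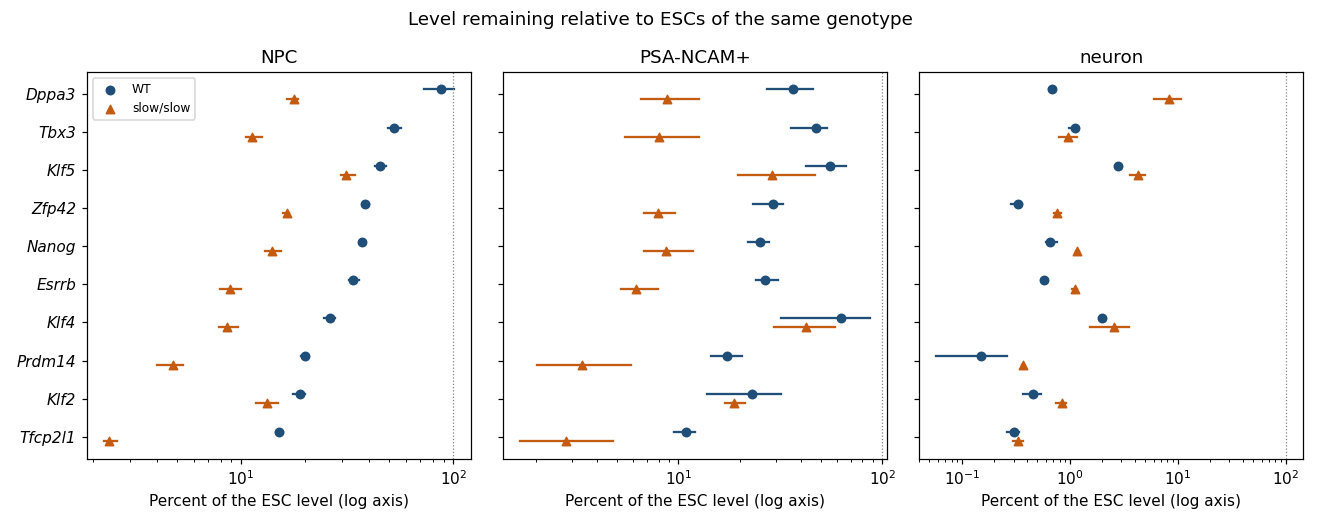
Level of each factor as a percent of the ESC mean of the same genotype (log axis) in NPCs, PSA-NCAM+ cells and neurons, ordered by the WT share in NPCs; points are means of 3 and bars span the replicates. In NPCs the slow/slow bar lies left of the WT bar for every factor, and in neurons most slow/slow points lie right of the WT points.

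As a share of the whole log2 fall from ESCs to neurons, WT cells had covered between 2.81% (Dppa3) and 34.1% (Klf4) by the NPC stage, with a median of 21.6%, and slow/slow cells between 36.9% (Klf5) and 68.8% (Dppa3), with a median of 50.4%. Esrrb, for example, had gone 21.0% of its way in WT and 53.9% in slow/slow cells. The whole fall was shorter in slow/slow cells for 9 members (7.43 in WT and 6.49 in slow/slow for Esrrb, on the scale of log2 CPM), Tbx3 being the exception, which by itself raises these percentages.

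In PSA-NCAM+ cells at day 10, 8 of the 10 factors were lower in slow/slow than in WT cells, and Klf4 and Klf2 did not pass. The members' median change was -1.92 against -0.01 for all genes, of which 28.1% were called lower. Esrrb was at 339, 435 and 348 CPM in WT against 83.2, 54.97 and 56.55 CPM in slow/slow cells, a change of -2.53 ± 0.13 (FDR = 2.27e-11), with every slow/slow sample below every WT sample. Nanog was at 261, 290.3 and 229 against 108, 69.5 and 62.6 CPM, a change of -1.70 ± 0.15 (FDR = 1.04e-08). Zfp42, at 269, 265 and 191 against 101, 70.9 and 79.5 CPM, changed by -1.53 ± 0.12 (FDR = 4.8e-09). In these 3 the highest slow/slow sample was replicate 1, one of the libraries that stood apart.

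The T-box factor Tbx3 showed the largest change of the stage, with 195, 192 and 129 CPM in WT against 35.8, 15.5 and 16.6 CPM in slow/slow cells, -2.94 ± 0.23 (FDR = 3.73e-09). Tfcp2l1 was at 205, 223 and 175 against 77.8, 32.0 and 27.4 CPM, -2.14 ± 0.25 (FDR = 5.68e-07). Both were apart in all samples, and Prdm14 and Dppa3 changed by -2.75 ± 0.29 (FDR = 1.52e-07) and -2.13 ± 0.24 (FDR = 4.25e-07). Klf5, at 78.2, 67.0 and 49.4 against 51.7, 21.4 and 21.7 CPM, changed by -1.04 ± 0.23 (FDR = 0.00076) although slow/slow replicate 1 lay within the WT range, and the call was lost when only the PSA-NCAM+ samples were fitted (-1.04, FDR = 0.099).

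Klf4 was the only member called higher than in NPCs in both genotypes. It was at 359, 284 and 132 CPM in WT against 231, 152 and 116 CPM in slow/slow PSA-NCAM+ cells, above the NPC level of its genotype in every sample. The rise over NPCs was 1.25 ± 0.28 (FDR = 0.00144) in WT and 2.29 ± 0.29 (FDR = 5.86e-06) in slow/slow cells. Klf2, too, was higher in slow/slow PSA-NCAM+ cells than in slow/slow NPCs, at 122, 153 and 129.7 CPM, 0.50 ± 0.19 (FDR = 0.0451), whereas its WT values of 149, 106 and 64.2 CPM spanned the NPC level. That call was lost with upper-quartile scaling (FDR = 0.0662) and without slow/slow NPC replicate 1 (0.0858) or 3 (0.122) or slow/slow PSA-NCAM+ replicate 2 (0.115). Over this step 1 of 10 members was thus called higher in WT, beside 21.8% of genes, and 2 of 10 in slow/slow, beside 22.5%. The rise of Klf4 differed between the genotypes by 1.04 ± 0.39 (FDR = 0.0826), which did not pass. Egr1, an immediate early target of ERK, rose over the same interval by 3.69 ± 0.24 (FDR = 2.04e-09) in WT and 4.32 ± 0.25 (FDR = 5.11e-10) in slow/slow cells. Socs3, a direct STAT3 target, rose by 1.48 ± 0.28 (FDR = 0.000284) and 2.63 ± 0.29 (FDR = 1.12e-06). Their lists were less uniform. Of 8 ERK targets, 2 were higher and 1 lower over this step in WT, and 3 higher and 2 lower in slow/slow cells. Of 10 LIF, STAT3 and WNT components, 5 were higher in WT and 7 in slow/slow cells, and none was lower. Over all genes 19.5% were called lower in WT and 19.8% in slow/slow cells. PSA-NCAM+ cells differ from NPCs by detachment and bead purification as well as by 3 days of culture, and the part of each in these changes cannot be told apart.

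Between NPCs and PSA-NCAM+ cells Nanog, Esrrb, Zfp42 and Dppa3 fell further in both genotypes, 4 of 10 members each time, beside 19.5% of genes called lower in WT and 19.8% in slow/slow cells. Several of these calls were not stable. In WT that of Esrrb was lost without NPC replicate 1 or 2 or PSA-NCAM+ replicate 1 or 3 (FDR 0.0671 to 0.111), and that of Zfp42 without NPC replicate 1 (0.0589) or PSA-NCAM+ replicate 3 (0.106) or when only the groups compared were fitted (0.0688). In slow/slow cells such a fit lost Nanog (0.104), Esrrb (0.135) and Dppa3 (0.0832). Dppa3, which had not passed the test in WT NPCs, now fell by 1.25 on the log2 scale in WT (FDR = 0.000153), to 1.65, 2.06 and 1.22 CPM. Tested directly, the step from NPC to PSA-NCAM+ differed between genotypes for Zfp42 only, -0.65 ± 0.17 (FDR = 0.0142), 1 member beside 7.04% of genes called lower in this contrast, and not when only the groups compared were fitted (FDR = 0.122). Relative to ESCs all 10 members were lower in PSA-NCAM+ cells of WT (33.6% of genes) and of slow/slow cells (34.2% of genes), with medians of -1.85 and -3.60, and the WT call for Klf4 was lost without any 1 of the WT ESC libraries (FDR 0.0601 to 0.065) or without WT PSA-NCAM+ replicate 3 (-0.37, FDR = 0.184). The interaction against ESCs was called for 8 members, all with the deeper fall in slow/slow, beside 12% of genes. Of these the call for Klf5, -0.95 ± 0.32 (FDR = 0.0343), was lost (FDR 0.056 to 0.104) without any 1 library of the groups compared other than WT PSA-NCAM+ replicate 3 and slow/slow PSA-NCAM+ replicate 1.

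Same-numbered replicates of the genotypes deviated together at this stage, which for replicates 2 and 3 can follow from replicate 1 standing apart in both. With the replicate number as a block Klf4 was called lower as well, at -0.62 (FDR = 0.028), making 9 of 10. A fit of the PSA-NCAM+ samples alone with that block also called 9 lower, Klf4 among them at -0.59, whereas without the block that fit left Klf5 uncalled, as given above. Klf4 was also called without WT replicate 3 (-0.92, FDR = 0.00311) or slow/slow replicate 1 (-0.92, FDR = 0.0051), and Klf2 was called higher without WT replicate 1 (0.66, FDR = 0.0033). Without replicate 1 of both genotypes, 9 members were called lower and Klf2 higher (0.73, FDR = 0.000233), beside 33.9% and 34.1% of genes. Relative to the chromosome 8 median, with all samples, Klf2 was at -0.11. The steps from NPC to PSA-NCAM+ changed most without these libraries. Then 8 members were lower and 2 higher in slow/slow cells, 5 lower and 1 higher in WT cells, and the difference between genotypes was called for 8 members, 6 of them lower. Of the 16746 genes tested in that fit, 8777, 9054 and 5200 were called in these contrasts in turn, in either direction. The part of the mesenchymal markers of these libraries in the results was not tested.

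As shares of the ESC mean, the median over the members in PSA-NCAM+ cells was 27.9% ± 4.64 points in WT and 8.37% ± 3.10 points in slow/slow cells. Klf4 had become the most retained member in both, at 62.7% (32.0 to 87.0%) and 42.2% (29.4 to 58.6%), followed by Klf5 at 55.3% (42.2 to 66.7%) and 28.8% (19.5 to 47.1%). Tbx3 kept 47.2% (35.5 to 53.5%) in WT but 8.02% (5.49 to 12.7%) in slow/slow cells. Dppa3, Zfp42, Esrrb, Nanog and Klf2 lay between 22.9% and 36.7% in WT, and Prdm14 and Tfcp2l1 were lowest at 17.3% and 10.9%. In slow/slow cells Klf2 kept 18.7%, Dppa3, Nanog, Zfp42 and Esrrb between 6.20% and 8.80%, and Prdm14 and Tfcp2l1 3.34% and 2.79%. Replicates of neighbours in these orders overlapped except below Klf2 in slow/slow and between Prdm14 and Tfcp2l1 in WT. Without replicate 1 the medians were 27.7% and 7.03% (n = 2), and the slow/slow shares of Prdm14 and Tfcp2l1 were 2.08% and 1.81%, over 1.5 times lower than with it. Those of Klf5, Klf4 and Tbx3 were then 19.6%, 34.01% and 5.69%. Tfcp2l1 was at the low end of both orders, as it was in NPCs, with and without these libraries.

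In neurons, in which every factor was at 8.26% or less of its ESC level, the direction turned. There 5 members were higher in slow/slow cells and none was called lower, where 23.4% of all genes were called higher and 28.4% lower. The members' median change was 0.60 against -0.06 for all genes. Zfp42 was at 2.35, 2.90 and 2.95 CPM in WT against 7.57, 8.66 and 7.48 CPM in slow/slow neurons, 1.53 ± 0.14 (FDR = 2.01e-08), and Klf2 at 1.72, 2.49 and 2.16 against 5.30, 6.17 and 6.63 CPM, 1.50 ± 0.23 (FDR = 1.46e-05). These chromosome 8 genes remained higher relative to their chromosome median, by 1.09 and 1.07.

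Nanog was at 6.28, 7.93 and 6.25 CPM in WT against 10.7, 11.2 and 10.4 CPM in slow/slow neurons, a change of 0.67 ± 0.15 (FDR = 0.000975), and Esrrb at 8.49, 8.31 and 7.70 against 11.81, 12.16 and 11.05 CPM, a change of 0.52 ± 0.13 (FDR = 0.00266). Dppa3 rested on few reads. WT neurons held 2, 2 and 3 counts (7 in all) and slow/slow neurons 62, a ratio of 11.1 per unit of scaled depth with a 95% counting interval of 5.10 to 28.9 that covers counting error only, and its FDR was 2.71e-07. Prdm14, with 26 and 44 counts, had a ratio of 2.13 (1.28 to 3.60) and did not pass the test at FDR = 0.118, although it did without WT replicate 1 (log2 change 1.67, FDR = 0.0393). Tfcp2l1 (5.71, 4.78 and 6.19 against 6.06, 4.83 and 5.23 CPM) overlapped between the genotypes. Tbx3 was the one member with every slow/slow sample lower, at 3.58, 4.32 and 4.24 against 3.26, 2.63 and 2.25 CPM, -0.56 ± 0.25 (FDR = 0.067). Fitted on the neuron samples alone, Klf5 (0.62, FDR = 0.000957) and Prdm14 (1.12, FDR = 0.0439) were also called higher and Tbx3 lower (-0.49, FDR = 0.01). In all, 7 members lay above and 1 below WT without overlap, where 75.6% of genes did not overlap.

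The fall from ESCs to neurons was called for all 10 members in WT (39.4% of genes lower, median -7.34) and in slow/slow cells (38.4% of genes lower, median -6.58), as was the fall from NPCs to neurons (38.9% and 36.6% of genes), with the WT value of Dppa3 in neurons resting on 2 to 3 counts a library. Shares of the ESC level had a median of 0.617% ± 0.0398 points in WT and 1.04% ± 0.0779 points in slow/slow neurons. The Krüppel-like factors Klf5 (2.76% in WT, 4.25% in slow/slow) and Klf4 (1.99% and 2.53%) kept more than Nanog (0.656% and 1.17%), and Prdm14 (0.151%) was the lowest in WT neurons. The interaction against ESCs was called for 5 members, all with a shallower fall in slow/slow cells, beside 20.5% of genes, and that against NPCs for all 10, beside 24.7%. It ranged from 1.16 (Klf5) to 5.78 (Dppa3) against NPCs. Upper-quartile scaling moved the median of all genes by 0.14 in the neuron comparison, by 0.16 and 0.18 in these interactions and by -0.19 and -0.27 in the WT falls to neurons. It left 5 and 10 interaction calls and called 6 members higher in neurons, Klf5 in addition.

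Markers of other cells moved with the neuron result. In that comparison 23.4% of all genes were called higher and 28.4% lower. The 6 endothelial markers were all called higher in slow/slow neurons and summed to 10.1 to 12.8 CPM in WT and 95.3 to 121 CPM in slow/slow neurons, among them Cdh5 (70.5 against 2.80 CPM, slow/slow against WT) and Tie1 (10.5 against 0.0512 CPM). Klf2 and Klf4 are also expressed by endothelium. Mesenchymal markers, 5 of 6 called higher, summed to 239 to 298 and 591 to 631 CPM, and primordial germ cell markers, 3 of 7 higher and 1 lower, to 16.3 to 18.5 and 28.1 to 30.2 CPM, with Dazl (2.41 ± 0.26, FDR = 2.38e-07), Prdm1 (1.81 ± 0.22, FDR = 8.2e-07) and Tfap2c (1.19 ± 0.40, FDR = 0.017) higher. Primitive endoderm markers were 5 of 6 higher and 1 lower. Mesoderm markers went the other way, 5 of 5 lower, at 76.9 to 102 CPM in WT and 7.71 to 9.01 CPM in slow/slow neurons, with Msgn1 at 0 in the latter. The part of such cells in the levels of the factors was not tested. Core pluripotency genes were divided. Pou5f1, which encodes Oct4, was lower in slow/slow neurons (36.7 against 82.8 CPM, -1.18 ± 0.23, FDR = 0.000214), as were Lin28a and Sall4, and Sox2 was higher.

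The rest of the pluripotency programme gave a frame for the NPC result. Of 14 other naive or ESC-associated genes, 9 were lower and 2 higher in slow/slow NPCs (median -0.68), and 11 were lower and 2 higher in PSA-NCAM+ cells (median -1.15), or 12 and 2 without replicate 1. Over all genes 27.4% were called lower and 29.3% higher in NPCs, and 28.1% and 28.6% in PSA-NCAM+ cells. In ESCs these shares were 21.9% and 18.5%, and in neurons 28.4% and 23.4%. They are the background for each list here and below. Pecam1 (-1.95 ± 0.13, FDR = 4.55e-10), Jam2 (-2.31 ± 0.16, FDR = 1.13e-09), Tcl1, an activator of AKT (-2.34 ± 0.18, FDR = 2.45e-09), and Fgf4, the ligand that drives ERK in ESCs (-1.24 ± 0.11, FDR = 1.3e-08), were among them in NPCs. In ESCs 2 were higher and 2 lower, and in neurons 6 were higher and 2 lower. In neurons Pecam1 stood at 0.477 in WT and 8.28 in slow/slow cells on the authors' mean RPKM, the direction of the endothelial markers there. The part of endothelial cells in its level was not tested. The 6 core genes were divided at every stage, with 1 higher (Lin28a, 1.33 ± 0.25, FDR = 0.00019) and 1 lower (Utf1, -0.69 ± 0.17, FDR = 0.00165) in NPCs and Pou5f1 at 736 against 639 CPM (0.20 ± 0.22, FDR = 0.449).

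Formative and primed genes were higher in slow/slow cells where the naive factors were lower, at the NPC and PSA-NCAM+ stages. All 10 listed were higher in slow/slow NPCs (median 1.33), 8 were higher and 1 lower in PSA-NCAM+ cells (median 1.43), and 6 were already higher in ESCs (median 0.51). In neurons 5 were higher and 2 lower (median 0.50), the direction of the naive factors there. The PSA-NCAM+ counts were 8 and 1 without replicate 1 as well. Lef1, a WNT effector, was at 71.3 against 1.22 CPM, slow/slow against WT, in NPCs (5.86 ± 0.47, FDR = 5.27e-09). Sox3 was at 35.4 against 3.25 CPM (3.44 ± 0.41, FDR = 9.15e-07), Fgf5 at 10.3 against 1.78 CPM (2.54 ± 0.20, FDR = 5.61e-09), and Otx2, a regulator of the exit from the naive state, at 57.4 against 24.3 CPM (1.24 ± 0.17, FDR = 4.17e-06). Neural progenitor markers were higher too, Pax6 at 40.9 against 4.30 CPM and Nes at 92.9 against 33.1 CPM. From WT NPCs to WT neurons 3 of the 10 formative and primed genes were called higher and 6 lower, beside 41.4% and 38.9% of all genes. By the authors' mean RPKM Sox3 went from 1.68 to 17.7, Lef1 from 0.367 to 5.45 and Fgf5 from 0.767 to 2.80. Otx2 went from 11.3 to 1.75. The part of neural cells in the higher levels of this list was not tested. In PSA-NCAM+ cells the formative sum of slow/slow replicate 1 was nearer to WT than to its own group, as the plot of list sums shows.

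**Figure D4:**
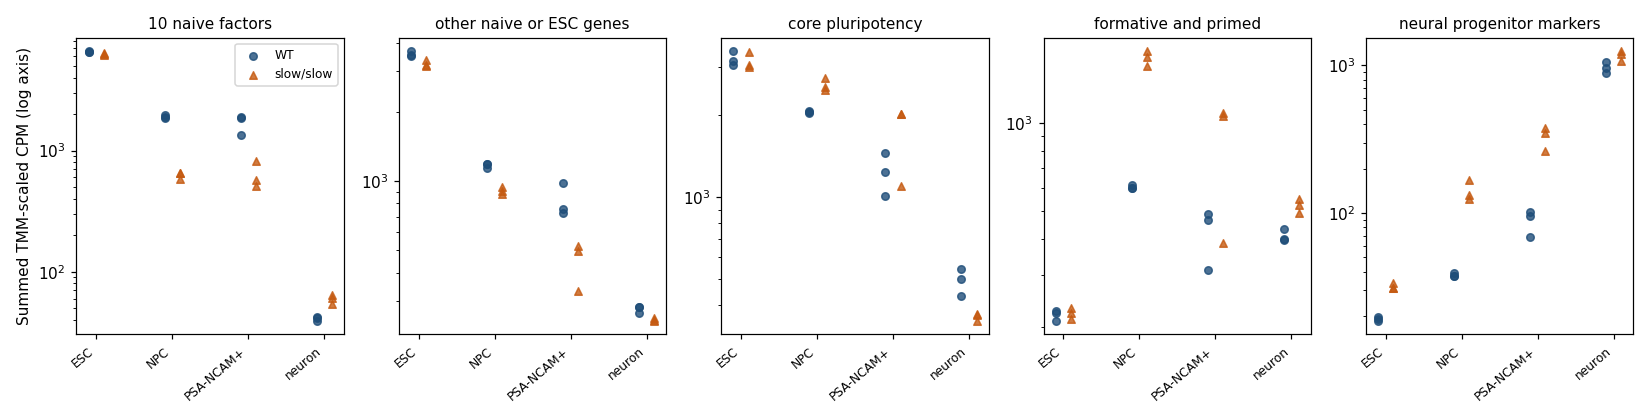
Summed TMM-scaled CPM (log axis, own range per panel) of the 10 factors, other naive or ESC genes, core pluripotency genes, formative and primed genes and neural progenitor markers; each point is a sample, circles WT and triangles slow/slow. At NPCs the naive sums are lower and the formative and neural sums higher in slow/slow samples, and the core sum is 2472 to 2744 CPM against 2036 to 2069 CPM in WT.

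Signalling inputs and regulators of exit were less uniform. Of 8 targets of the ERK pathway, 5 were higher and none lower in slow/slow NPCs (median 0.56), including Spry2 (1.07 ± 0.14, FDR = 3.26e-06), Spry4 (1.01 ± 0.15, FDR = 1.42e-05) and Dusp4 (0.70 ± 0.17, FDR = 0.00134), feedback inhibitors that report pathway activity. In PSA-NCAM+ cells 5 were again higher (7 higher and 1 lower without replicate 1), in ESCs 1 was higher and 2 lower, and in neurons 2 were higher and 4 lower. Of 10 LIF, STAT3 and WNT components, 4 were lower and 1 higher in NPCs, with the LIF receptor gene Lifr at -0.39 ± 0.10 (FDR = 0.00256) and Socs3 at -0.88 ± 0.27 (FDR = 0.0102). The values of list genes are not given relative to their chromosomes. Chromosome medians in NPCs ran from -0.57 on chromosome 15 to 0.49 on chromosome 8, so that changes of such sizes can be shared with a whole chromosome. Near the share of all genes, of 12 genes that promote exit from the naive state, 3 were higher (among them Mbd3 and Zfp281) and 3 lower (among them Rbpj, log2 change -1.04 ± 0.08, FDR = 3.61e-09, and Nf1, -0.76 ± 0.10, FDR = 5.53e-06). In slow/slow ESCs 5 of the 12 were lower and 1 higher. Flcn (-0.62 ± 0.12, FDR = 0.000346) and Tcf7l1 (-0.53 ± 0.13, FDR = 0.00328), a repressor of Nanog and Esrrb, were among the lower ones.

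The members resembled each other across the 8 group means of log2 CPM, which carry both stage and genotype, with Pearson r between 0.783 (Klf4 and Dppa3) and 0.995 (Tfcp2l1 and Prdm14). Among all tested genes, those most like Nanog were Gca (r = 0.998), Tmc6 and Mreg, and those most like Esrrb were Map2k1, which encodes MEK1 (r = 0.998), Tcl1 and Adgre5. Zfp42 was most like Fbxo15 (r = 0.996), Prdm14 most like Lrrc15 (r = 0.999), Tfcp2l1 most like Eif2s2 (r = 0.997) and Tbx3 most like Esrrb (r = 0.992). Klf2 was most like Rreb1 (r = 0.995), Klf4 most like Myof (r = 0.987), Klf5 most like Slc25a13 and Dppa3 most like Plxdc1 (r = 0.983). These 8 points span the fall to neurons, share libraries and are given as a description.

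Splicing was a second readout, given by the authors as percent spliced in (PSI) for 82 listed events in the members. Of these 63 had coverage in all 6 ESC samples, 37 in the NPC samples, 47 in those of PSA-NCAM+ cells and 7 in the neuron samples. None changed by over 10 points with a posterior probability over 0.95 at any stage, where the same rule, run over all covered events, called 0.199% at the ESC stage, 0.886% at NPCs, 0.267% after purification and 0.887% in neurons. With limma on the same events 0 member events passed after adjustment. Over all covered events limma called 1 of 114336, 43 of 128441, 0 of 133880 and 5 of 135172 at the 4 stages. With so few calls anywhere, the 0 for members cannot show that their splicing was unchanged. By that test 5, 8, 10 and 2 member events had an unadjusted p under 0.05. Dppa3 had no covered event, and in neurons only 3 member genes had one.

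The closest to the threshold was an alternative 3′ splice site of Zfp42 that adds 221 bases (chr8:44391034-44391517 in mm9), used at 14.6, 13.2 and 12.2% in WT ESCs and 27.9, 28.0 and 18.7% in slow/slow ESCs, a difference of 11.6 points with a posterior of 0.948. The samples did not overlap, and the event was called without WT replicate 1, WT replicate 2 or slow/slow replicate 3. In Tbx3 a 60-base exon (chr5:120125252-120125311 in mm9) was included at 49.1, 48.3 and 46.9% in WT NPCs and at 46.3, 39.7 and 45.8% in slow/slow NPCs, and at 43.9, 27.0 and 35.8% against 43.9, 13.5 and 19.4% in PSA-NCAM+ cells. There the slow/slow mean differed by -9.96 points and replicate 1 had the same value in both genotypes. Without slow/slow replicate 1 the exon was called, at -19.1 points.

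A 105-base exon of Zfp42 (chr8:44388229-44388333 in mm9) showed the same replicate. It was included at 10.7, 12.4 and 9.0% in WT ESCs and 10.4, 8.82 and 11.4% in slow/slow ESCs, which overlapped. In PSA-NCAM+ cells replicate 1 stood at 67.4% in WT and 67.6% in slow/slow, while replicates 2 and 3 were at 19.8 and 15.1% in WT and 23.9 and 17.8% in slow/slow cells. The samples of that stage were thus separated by replicate number and not by genotype.

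**Figure D5:**
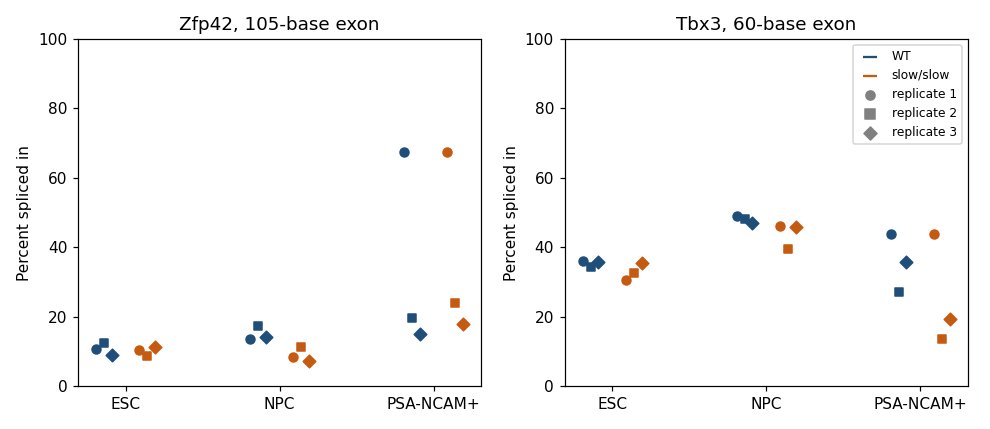
Percent spliced in of the 105-base exon of Zfp42 and the 60-base exon of Tbx3 in each covered sample; colour marks genotype and shape the replicate number. In PSA-NCAM+ cells the Zfp42 exon is at 67.4 and 67.6% in replicate 1 of WT and slow/slow and at 15.1 to 23.9% in the other 4 samples.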

How the data were processed

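Libraries were made from poly(A) RNA with the TruSeq stranded kit and sequenced in pairs. Per the labels, the authors used bcl2fastq 2.17.1.14, mm9 and edgeR, and per the paper vast-tools. The deposited tables held raw counts per gene, the authors' mean RPKM per group, and percent spliced in (PSI, a percent) with read support per event. Of 22667 genes listed, 1114 had no values. Columns of the authors' own comparisons (fold changes and p-values) were not used. The members and all gene lists were chosen with earlier results of these data known. All 10 members are named; from other lists, at most the 4 genes with the smallest FDR.

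Counts were fitted with edgeR 4.0.16 (R 4.3.3; filterByExpr, TMM, 1 quasi-likelihood model of 8 groups, 16 residual degrees of freedom, common biological coefficient of variation 0.164), Benjamini-Hochberg over 16627 genes, FDR 0.05. Alternatives were DESeq2 1.42.0, other scalings, no filter, a 2-fold minimum, a replicate block, fits of only the groups compared, and leaving out libraries. Events were called at over 10 PSI points with posterior probability over 0.95, with limma 3.58.1 as an alternative. Scripts were tested on simulated data. Replicate numbers came from the titles. Deviations of same-numbered WT and slow/slow samples from their group means correlated at 0.379 to 0.523 at the PSA-NCAM+ stage and at -0.074 to 0.046 elsewhere. The numbers were taken to pair samples at that stage. Deviations within a group cancel out, however, so replicate 1 standing apart in both genotypes raises the correlations of the other replicates as well. Pairing of those was not shown separately. The exclusion of PSA-NCAM+ replicate 1 and the blocked fit of that stage alone were added after seeing the data.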

Additional observations from a re-analysis of the deposited data

Results flagged for a closer look

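Each value here is the change between stages in slow/slow cells minus the same change in WT cells, on the log2 scale, singled out because the interaction term of edgeR's quasi-likelihood test passed FDR 0.05 over all genes. From ESC to NPC the difference was -2.65 for Tfcp2l1, -2.30 for Dppa3, -2.21 for Tbx3, -2.07 for Prdm14, -1.93 for Esrrb, -1.61 for Klf4, -1.41 for Nanog and -1.22 for Zfp42, all deeper falls in slow/slow cells. From ESC to PSA-NCAM+ it was -2.57 for Tbx3, -2.42 for Prdm14, -2.10 for Dppa3, -2.09 for Esrrb, -1.97 for Tfcp2l1, -1.88 for Zfp42, -1.52 for Nanog and -0.95 for Klf5. From NPC to PSA-NCAM+ it was -0.65 for Zfp42.

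Later the sign turned. From ESC to neuron the difference was 3.48 for Dppa3, 1.18 for Zfp42, 0.95 for Esrrb, 0.87 for Klf2 and 0.84 for Nanog. From NPC to neuron it was 5.78 for Dppa3, 3.44 for Prdm14, 2.88 for Esrrb, 2.77 for Tfcp2l1, 2.41 for Zfp42, 2.25 for Nanog, 2.02 for Tbx3, 1.97 for Klf4, 1.39 for Klf2 and 1.16 for Klf5, the value for Dppa3 resting on 2 to 3 counts in each WT neuron library. These contrasts share libraries, so that they are not separate evidence, and seeding density differed with genotype in the NPC and PSA-NCAM+ cultures. Neurons came from day 7 cultures, so that a difference carried over from seeding cannot be told apart from genotype in them. Without WT ESC replicate 3 or WT neuron replicate 1 the call for Klf2 from ESC to neuron was lost, at FDR = 0.0538 and 0.0617. Groups of 3 were too small to flag single outlying samples by a rule. PSA-NCAM+ replicate 1 of both genotypes was set apart only after seeing the data.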

How the results depend on the processing

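Of 285 recomputed counts of called members 265 stayed within 1.5 times the main count, and of 2890 recomputed single values 21 changed direction, most of them small and uncalled. Against a minimum change of 2-fold, called members fell to 0 in ESCs, 3 in neurons, 0 and 1 from NPC to PSA-NCAM+ in WT and slow/slow, and 5, 1 and 0 for the interactions from ESC to NPC, ESC to neuron and NPC to PSA-NCAM+. Fits of only the groups compared called 6 in ESCs, 8 in neurons, 3 for slow/slow PSA-NCAM+ against NPC and 0 for the interaction from NPC to PSA-NCAM+, which had 2 with DESeq2 and 2 with the replicate block. The block otherwise changed the calls of Klf4 in PSA-NCAM+ cells (FDR = 0.028), Tbx3 in neurons (-0.59, FDR = 0.0373) and Tbx3 in slow/slow PSA-NCAM+ against NPC (-0.54, FDR = 0.0364), Klf4 being the added call of the interaction (1.07, FDR = 0.0348), and it changed no other call of a member. Without PSA-NCAM+ replicate 1 of both genotypes, 10 were called for slow/slow PSA-NCAM+ against NPC and 8 for the interaction from NPC to PSA-NCAM+. Over all 16746 genes of that fit 8777 and 5200 were called. Leaving out single libraries gave 3 to 5 calls for WT PSA-NCAM+ against NPC, 5 to 10 for slow/slow, 1 to 6 for the interaction, and 0 to 1 splicing events in ESCs and in PSA-NCAM+ cells. With unscaled totals the median shares of the ESC level were 39.97% in WT NPCs, 13.7% in slow/slow NPCs, 0.667% in WT neurons and 1.25% in slow/slow neurons.

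Single values turned direction as follows, all with the cause not tested. Zfp42 in ESCs was -0.10 relative to its chromosome. Tfcp2l1 between neurons was 0.0909 with upper-quartile scaling and 0.0187 with only the groups compared. Without PSA-NCAM+ replicate 1 of both genotypes, PSA-NCAM+ against NPC was -0.0503 for Klf2 in WT and -0.402 for Tfcp2l1 in slow/slow, and the interaction was 0.0951 for Klf2 (from ESC) and -0.0836 for Dppa3 (from NPC). Leaving out single libraries, the genotype change ranged from -0.100 to 0.0708 for Dppa3 in ESCs, from -0.0132 to 0.532 for Klf4 and from -0.158 to 0.0276 for Tfcp2l1 in neurons. PSA-NCAM+ against NPC ranged from -0.0490 to 0.537 for Klf2 and from -0.248 to 0.0259 for Tbx3 in WT, and from -0.646 to 0.125 for Klf5 and from -0.379 (FDR = 0.0121, without slow/slow replicate 1) to 0.516 for Tfcp2l1 in slow/slow cells. The interaction from NPC to PSA-NCAM+ ranged from -0.381 to 0.0596 for Nanog, from -0.0119 to 0.547 for Klf2 and from -0.0845 to 0.403 for Dppa3, and that from ESC ranged from -0.538 to 0.0259 for Klf2. Depth limited Dppa3 and Prdm14 in neurons and splicing in neurons.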

Other observations

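Lists of other lineages gave further differences between the genotypes, called with edgeR's quasi-likelihood test as above. Of 7 primordial germ cell markers, 3 were lower and 1 higher in slow/slow NPCs, with the same counts in PSA-NCAM+ cells, or 4 and 1 without replicate 1 of that stage. Dazl, an RNA-binding protein of germ cells, was at 4.09 against 13.9 CPM, slow/slow against WT, in NPCs (-1.77 ± 0.18, FDR = 1.49e-07) and at 2.11 against 23.0 CPM in PSA-NCAM+ cells (-3.46 ± 0.19, FDR = 4.06e-11). Tfap2c was at 17.3 against 81.7 CPM in NPCs (-2.24 ± 0.40, FDR = 8.64e-05), whereas Prdm1 was higher (1.62 ± 0.20, FDR = 1.71e-06). Dazl and Tfap2c were thus lower in slow/slow NPCs, and both were called higher in slow/slow neurons. The genes named here were chosen after their values were seen.

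Of 5 trophoblast markers, 4 were lower in slow/slow PSA-NCAM+ cells, including Cdx2 (-1.57 ± 0.17, FDR = 3.14e-07) and Hand1 (-2.10 ± 0.47, FDR = 0.000858). Without replicate 1 again 4 were lower and 1 was higher, with Hand1 at -3.62. In neurons 2 of the 5 were higher and 2 lower, beside 23.4% and 28.4% of all genes. Cdx2, one of those lower there, was at 2.65 against 50.7 CPM (-4.27 ± 0.19, FDR = 1.96e-12). The mesoderm gene T was at 6.97 against 76.8 CPM in neurons (-3.46 ± 0.19, FDR = 4.3e-11). Among glial markers in neurons, 2 of 5 tested were higher and 3 lower, with Sox10 at 7.07 against 0.935 CPM (2.92 ± 0.38, FDR = 2.33e-06) and Olig2 at 0.883 against 22.8 CPM (-4.69 ± 0.44, FDR = 4.12e-08).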
